A study of Mus musculus with 33 samples.

Results

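Neutrophils build their granules in stages, and 32 neutrophil genes were followed here through 3 sorted cell populations of the inflamed mouse brain. They were 9 granule-precursor genes (Mpo, Elane, Prtn3, Ctsg, Ltf, Camp, Ngp, Lcn2 and Cd177) and 23 other members, taken by symbol from the 21950 genes of the count table, and all 32 were found. Some members had been picked because of their levels in these libraries, so the differences between populations in vehicle libraries are given as description only. The mice carried a cortical model of multiple sclerosis and received an inhibitor of CSF1R, the receptor on which microglia depend, or vehicle. Brain cells were sorted by surface proteins into an activated microglia gate (CD45-high CD11b-high CCR2-), a blood-derived phagocyte gate (CD45-high CD11b-high CCR2+) and a resting microglia gate (CD45-int CD11b-int). Each gate had 6 inhibitor and 5 vehicle libraries, 33 in all, and every group carried the disease model. The labels give no strain, age or sex, no inhibitor name, dose or duration, and no statement that libraries came from separate animals, so p-values measure the spread between libraries, which may be technical.

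In the bone marrow, the promyelocyte fills azurophil granules with myeloperoxidase and serine proteases, the myelocyte and metamyelocyte fill specific granules with lactoferrin and other antimicrobial proteins, and band cells fill gelatinase granules. Transcription of granule genes is largely shut before the cell enters the blood, so a mature neutrophil carries much granule protein but little messenger RNA of the early proteins. CD11b and CD45 are on neutrophils as well as on activated microglia and monocytes, and neutrophils generally lack CCR2.

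Libraries held 11789803 to 22146705 counts, with 9742 to 14861 genes detected. The 3 libraries with fewer than 11000 detected genes were inhibitor libraries 1 and 2 and vehicle library 2 of the activated gate. The 8 microglia markers, which include P2ry12 and Tmem119, summed to 973 to 4138 CPM (counts scaled to a common library total) in inhibitor and 978 to 4843 CPM in vehicle libraries of the activated gate. In the resting gate the same sum was 21930 to 33513 CPM with inhibitor and 21038 to 29552 CPM with vehicle. The blood-derived gate lay within the range of the activated gate, at 2447 to 3569 CPM with inhibitor and 2580 to 3716 CPM with vehicle. Ccr2 averaged 255 ± 47.5 CPM with inhibitor and 215 ± 25.4 CPM with vehicle in the blood-derived gate (SD, n = 6 and 5). In the activated gate it averaged 37.4 ± 31.1 CPM with inhibitor and 90.2 ± 52.1 CPM with vehicle. The labelled name of the activated gate is therefore used below for the sort, not for the identity of the cells that gave these transcripts.

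The neutrophil genes were concentrated in the activated gate. Their 32 transcripts together took 1.03% to 8.38% of all counts in its inhibitor libraries and 1.31% to 5.05% in its vehicle libraries. In the blood-derived gate the share was 0.0595% to 0.0975% with inhibitor and 0.0547% to 0.11% with vehicle, and in the resting gate 0.00448% to 0.0105% with inhibitor and 0.00478% to 0.0181% with vehicle. In these bulk libraries, fewer neutrophils and less RNA per neutrophil cannot be told apart. Per transcript length, over the 11 libraries of the activated gate, the highest mean was that of Ngp, neutrophilic granule protein, at 6323 FPKM (fragments scaled by transcript length and library size, the authors' values). Retnlg, a resistin-like secreted protein, followed at 5995 FPKM, Lcn2, the iron-siderophore binder lipocalin 2, at 4028 FPKM, and Ltf, lactoferrin, at 1247 FPKM. The lower end held Elane at 14.4, Cebpe at 7.38, Mpo at 6.76, Prtn3 at 5.8 and Ctsg at 0.493 FPKM. Neighbours in this order such as Ngp and Retnlg did not differ beyond their spread, since Ngp ran from 727 to 26774 FPKM and Retnlg from 1565 to 18119 FPKM. The azurophil genes thus formed 4 of the 5 lowest of the 32 members, and the specific granule genes Ngp, Lcn2 and Ltf 3 of the 4 highest.

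**Figure D1:**
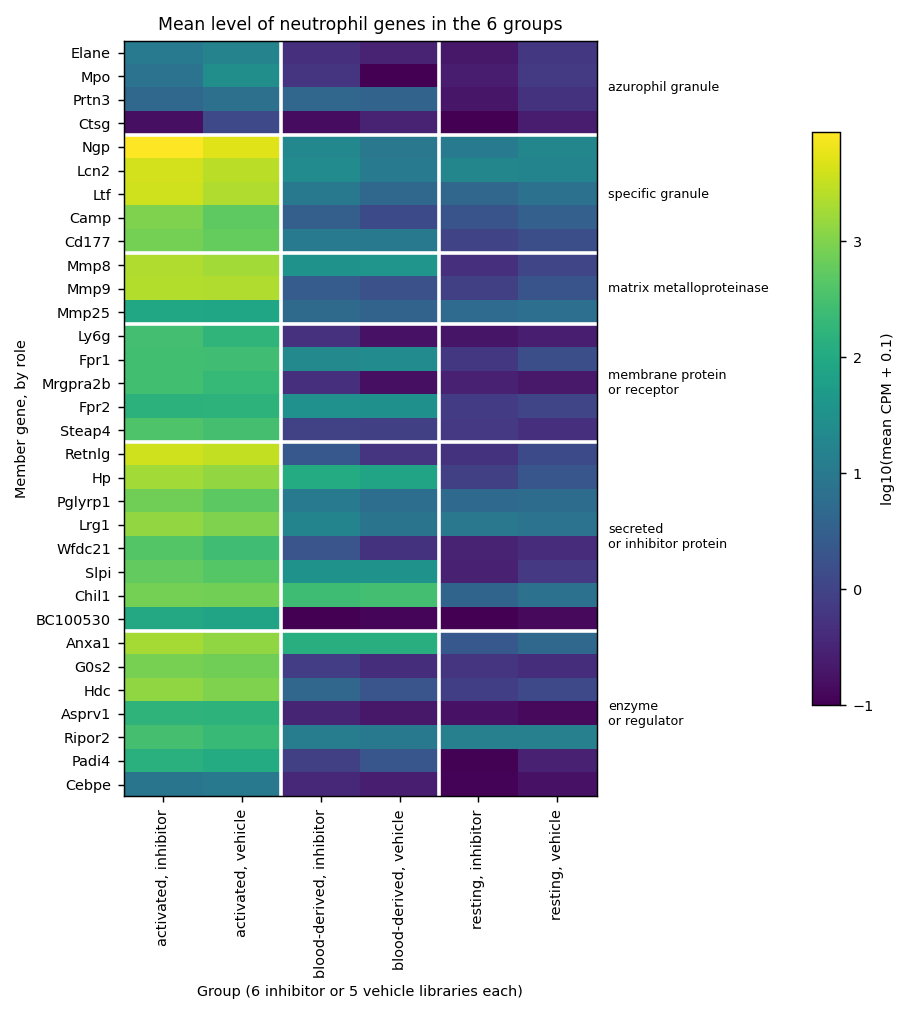
Mean level of each of the 32 neutrophil genes (rows, grouped by role) in the 6 groups (columns), as colour on a log10 scale of mean CPM plus 0.1. The activated gate columns are brightest for nearly all rows, and there the 4 azurophil rows are darker than the specific granule rows. Chil1, Anxa1 and Hp keep intermediate levels in the blood-derived gate.

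The azurophil genes were near 0 in most libraries of the activated gate. They lie, in GRCm38, at chr11:87793581-87804413 (Mpo), chr10:79886247-79888215 (Elane), chr10:79874476-79883174 (Prtn3) and chr14:56099881-56102574 (Ctsg). Mpo, myeloperoxidase, had 0, 25.8, 0, 17.7, 0.497 and 1.8 CPM in inhibitor libraries 1 to 6, against 0, 0, 0, 0.703 and 139 CPM in vehicle libraries 1 to 5. Elane, neutrophil elastase, had 0, 39.8, 0, 25.2, 0 and 3.86 CPM with inhibitor, against 0, 0, 0, 1.41 and 79.9 CPM with vehicle. Both genes were highest in vehicle library 5 and next highest in inhibitor libraries 2 and 4, and the groups overlapped. Prtn3, proteinase 3, had 0, 10.2, 0, 7.04, 5.24 and 4.34 CPM with inhibitor, against 3.08, 0, 0, 7.63 and 21.4 CPM with vehicle. Ctsg, cathepsin G, was found in inhibitor library 6 at 0.371 CPM and in vehicle library 5 at 5.58 CPM and had no count in the other 9 libraries of this gate. Vehicle library 5 therefore held the highest value of all 4 azurophil genes. Prtn3 and Elane lie 3.1 kb apart on chromosome 10, and reads of Prtn3 could be shared with Plppr3, which overlaps it on the opposite strand, because the strand setting of the counting was not given in the sources used here. Summed over the 4 genes, the azurophil level was 12.8 counts per 1000 counts of the 5 specific granule genes in vehicle library 5, and 0 to 1.79 in the other 10 libraries.

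The 5 specific granule genes were detected in every library of the activated gate. They lie at chr9:110419747-110423012 (Ngp), chr9:111019271-111042767 (Ltf), chr9:109847379-109849617 (Camp), chr2:32384633-32388252 (Lcn2) and chr7:24743983-24760311 (Cd177). Ngp, a cathelicidin-related protein of the specific granules, had 2577, 23315, 1111, 13060, 4304 and 8029 CPM with inhibitor, against 3100, 1035, 1040, 10758 and 9005 CPM with vehicle. Ltf had 1245, 8358, 525, 6625, 2142 and 4300 CPM with inhibitor, against 1586, 205, 369, 5420 and 3686 CPM with vehicle. For both genes inhibitor library 2 was highest, inhibitor libraries 4 and 6 and vehicle libraries 4 and 5 came next, and inhibitor library 3 and vehicle libraries 2 and 3 were lowest. Camp, the cathelicidin antimicrobial peptide, had 165, 2645, 122, 1375, 508 and 1084 CPM with inhibitor, against 247, 91.2, 85.8, 1088 and 1070 CPM with vehicle. Lcn2 had 1736, 10068, 874, 5377, 2935 and 3459 CPM with inhibitor, against 1737, 818, 984, 5188 and 4456 CPM with vehicle. Cd177, a surface glycoprotein stored in specific granules of human neutrophils, had 281, 1522, 151, 1428, 539 and 1044 CPM with inhibitor, against 439, 49.6, 213, 1260 and 1000 CPM with vehicle. The groups overlapped for all 5 genes, and over the 11 libraries of both groups the highest was 40.8-fold the lowest for Ltf, 30.8-fold for Camp, 30.7-fold for Cd177, 22.5-fold for Ngp and 12.3-fold for Lcn2. Within groups, Ltf spanned 15.9-fold with inhibitor and 26.4-fold with vehicle.

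Promoters of 4 members are shown as examples: Elane of the azurophil genes, Ltf and Ngp of the specific granule genes, and Retnlg of the secreted proteins among the other members. Each is taken from the RefSeq window of 250 bases before the transcription start, on the gene's strand, which is the plus strand for all 4, in build GRCm38.p6. For Elane, Ltf and Ngp the gene begins earlier in the GENCODE annotation, and the printed stretch stops at the base before that start. The part left off held 1 of the 3 matches of the Ngp window. Capitals mark matches of the C/EBP motif TTNNGNAA or its reverse complement TTNCNNAA, where N is any base; C/EBP factors are the myeloid regulators to which the member Cebpe belongs.
Elane, chr10:79886062-79886246: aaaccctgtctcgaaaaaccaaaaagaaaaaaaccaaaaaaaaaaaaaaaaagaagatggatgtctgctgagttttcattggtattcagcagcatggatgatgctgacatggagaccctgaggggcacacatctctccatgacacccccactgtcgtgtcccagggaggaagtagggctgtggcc
Ltf, chr9:111019042-111019270: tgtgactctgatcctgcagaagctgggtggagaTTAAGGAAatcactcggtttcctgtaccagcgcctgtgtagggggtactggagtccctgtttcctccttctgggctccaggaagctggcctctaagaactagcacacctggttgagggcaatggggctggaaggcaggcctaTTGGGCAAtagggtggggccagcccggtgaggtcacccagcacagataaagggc
Ngp, chr9:110419558-110419746: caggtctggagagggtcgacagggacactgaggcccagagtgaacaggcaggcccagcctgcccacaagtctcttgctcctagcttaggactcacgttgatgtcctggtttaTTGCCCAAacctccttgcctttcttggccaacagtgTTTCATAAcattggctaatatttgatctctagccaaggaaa
Retnlg, chr16:48872358-48872607: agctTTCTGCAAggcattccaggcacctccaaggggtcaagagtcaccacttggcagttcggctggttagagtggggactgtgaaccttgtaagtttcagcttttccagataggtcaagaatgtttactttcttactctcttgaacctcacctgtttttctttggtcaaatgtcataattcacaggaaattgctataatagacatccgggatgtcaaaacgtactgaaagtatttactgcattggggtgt
The printed stretches held 0 matches for Elane, 2 for Ltf, 2 for Ngp and 1 for Retnlg. They differ in length, and these 4 counts do not stand for a stage. In windows of 250 bases, Mpo, Elane, Prtn3, Ctsg and the specific granule gene Camp held 0. Lcn2 and Cd177 held 1 each, Ltf 2 and Ngp 3. The other members also ranged from 0, as in Hdc and G0s2, to 3, as in Slpi and Fpr1. Not all windows lie before the gene as GENCODE places it. Those of Prtn3, Lcn2, Hdc and Slpi lie wholly within it, and that of Mpo does so except for 47 bases. In windows of 250 bases, 17 of the 30 windows of members (56.7%) held a match, from 27 genes with an entry, against 12104 of 32851 windows of all genes (36.8%). The motif GAGGAA of PU.1, the ETS factor of myeloid cells, or its reverse complement TTCCTC, was in 14 of 30 member windows (46.7%) and in 7639 of all windows (23.3%). A match describes letters only. Wfdc21, Mmp9, Hp, Cebpe and BC100530 had no entry. Camp, Ngp and Ltf lie in this order on chromosome 9, with 570.1 kb between Camp and Ngp and 596.3 kb between Ngp and Ltf.

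The other members varied less. Their coefficient of variation over the 11 libraries of the activated gate ran from 23.4% to 79.8% with a median of 49.2%, against 75.4% to 102% with a median of 88.2% for the 5 specific granule genes and 120% to 310% with a median of 217% for the 4 azurophil genes, whose low counts add counting error. Mmp8, the neutrophil collagenase, had 826, 4869, 537, 3286, 1670 and 2554 CPM with inhibitor, against 1661, 383, 881, 3334 and 2664 CPM with vehicle. Its order of libraries was close to that of Ngp, and its 12.7-fold range was the widest of the 3 metalloproteinases. Mmp9, gelatinase B of the gelatinase granules, averaged 2362 ± 1311 CPM with inhibitor and 2223 ± 780 CPM with vehicle (SD, n = 6 and 5). Mmp25, a membrane-anchored metalloproteinase, averaged 90.1 ± 42.1 CPM with inhibitor and 81.6 ± 62.9 CPM with vehicle.

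Among membrane proteins and receptors, Ly6g, the surface antigen by which mouse neutrophils are usually sorted, had 180, 464, 68.7, 472, 321 and 262 CPM with inhibitor, against 109, 73.6, 102, 317 and 241 CPM with vehicle. Inhibitor libraries 2 and 4 were highest and inhibitor library 3 was lowest, so the groups overlapped. Fpr1 and Fpr2, the formyl peptide receptors whose genes lie 3.9 kb apart on chromosome 17, averaged 281 ± 169 and 147 ± 52.7 CPM with inhibitor and 263 ± 64.1 and 159 ± 46.4 CPM with vehicle. Mrgpra2b, a G protein-coupled receptor, averaged 276 ± 147 CPM with inhibitor and 200 ± 63.6 CPM with vehicle, and Steap4, a metalloreductase, 376 ± 120 CPM with inhibitor and 301 ± 123 CPM with vehicle. Mrgpra2b is near-identical to Mrgpra2a and may share its reads, and Fpr2 overlaps Fpr3 on the same strand, so the level of each is uncertain.

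Among secreted proteins and inhibitors, Retnlg had 2005, 7851, 1176, 4515, 3308 and 3871 CPM with inhibitor, against 2180, 1233, 1972, 5999 and 4026 CPM with vehicle. Its 6.68-fold range was narrower than that of any specific granule gene, with inhibitor library 2 highest and inhibitor library 3 lowest. Hp, haptoglobin, averaged 1804 ± 904 CPM with inhibitor and 1361 ± 451 CPM with vehicle, and Lrg1, a leucine-rich glycoprotein of neutrophil granules, 1408 ± 647 CPM with inhibitor and 950 ± 240 CPM with vehicle. Chil1, a chitinase-like protein, averaged 794 ± 228 CPM with inhibitor and 776 ± 216 CPM with vehicle. Pglyrp1, which binds bacterial peptidoglycan, averaged 736 ± 461 CPM with inhibitor and 494 ± 256 CPM with vehicle. Slpi, an inhibitor of neutrophil elastase, averaged 573 ± 294 CPM with inhibitor and 436 ± 144 CPM with vehicle. Wfdc21 averaged 425 ± 315 CPM with inhibitor and 267 ± 164 CPM with vehicle. BC100530, a stefin-like gene with near-identical copies and so uncertain, averaged 93.8 ± 93 CPM with inhibitor and 77.5 ± 30 CPM with vehicle. The groups overlapped for all 8 genes of this role.

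Among enzymes and regulators, Anxa1, the lipocortin annexin A1, had 908, 3922, 568, 2530, 1429 and 2018 CPM with inhibitor, against 1041, 597, 789, 2421 and 1786 CPM with vehicle. Cebpe, the transcription factor that specific granule genes need, had 0.727, 19.8, 2.73, 10.1, 7.04 and 9.16 CPM with inhibitor, against 2.31, 19.5, 8.95, 7.93 and 9.79 CPM with vehicle. Cebpe did not keep the order of the granule genes, since vehicle library 2, which was lowest for Ngp, was next to highest for Cebpe. Hdc, histidine decarboxylase, averaged 1315 ± 679 CPM with inhibitor and 948 ± 360 CPM with vehicle. G0s2, an inhibitor of triglyceride lipase, averaged 847 ± 215 CPM with inhibitor and 753 ± 182 CPM with vehicle. Padi4, which citrullinates histones in neutrophil extracellular traps, averaged 135 ± 70.5 CPM with inhibitor and 108 ± 63.2 CPM with vehicle. Asprv1, a retroviral-like protease, averaged 164 ± 100 CPM with inhibitor and 155 ± 74.2 CPM with vehicle. Ripor2 averaged 301 ± 46.4 CPM with inhibitor and 215 ± 39.9 CPM with vehicle and had the smallest coefficient of variation of the 32, 23.4%. Inhibitor library 2 gave the highest value of the 11 for 24 of the 32 members, and inhibitor library 3 the lowest for 13 of the 28 members detected in all 11.

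**Figure D2:**
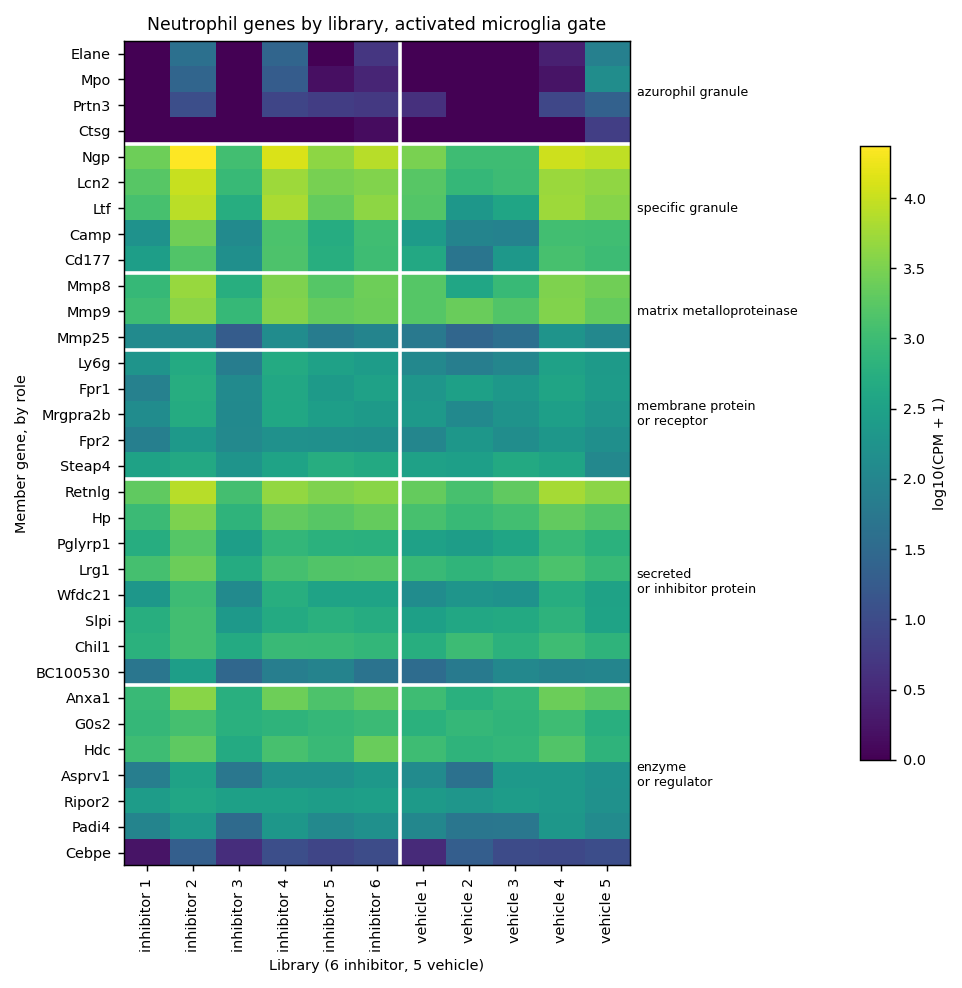
Level of each neutrophil gene (rows, grouped by role) in each of the 6 inhibitor and 5 vehicle libraries of the activated microglia gate (columns), as colour on a log10 scale of CPM plus 1. Inhibitor library 2 is brightest for most rows, and the rows of Mpo and Elane are brightest in vehicle library 5 and inhibitor libraries 2 and 4.

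Between libraries of the activated gate the granule-precursor genes and the rest did not move in a fixed proportion. The 9 granule-precursor genes took 0.600%, 4.60%, 0.278%, 2.79%, 1.04% and 1.79% of all counts in inhibitor libraries 1 to 6, against 0.711%, 0.220%, 0.269%, 2.37% and 1.95% in vehicle libraries 1 to 5. The 23 other members took 1.20%, 3.78%, 0.754%, 2.45%, 1.82% and 2.24% with inhibitor, against 1.31%, 1.09%, 1.20%, 2.68% and 1.79% with vehicle. The first share spanned 20.9-fold over the 11 libraries and the second 5.02-fold. Nearly all of the first share came from the specific granule genes, since the azurophil genes took at most 0.0246% of all counts, in vehicle library 5. The ratio of the 2 shares was 0.499, 1.22, 0.369, 1.14, 0.574 and 0.801 with inhibitor, against 0.542, 0.202, 0.224, 0.886 and 1.09 with vehicle. The ratio averaged 0.767 ± 0.349 with inhibitor and 0.588 ± 0.395 with vehicle, a difference smaller than the spread between libraries. Inhibitor libraries 2 and 4, the 2 with the largest share of all members, also had the largest ratio. Vehicle libraries 2 and 3 had the smallest ratio, while the smallest share of all members, 1.03%, was that of inhibitor library 3.

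**Figure D3:**
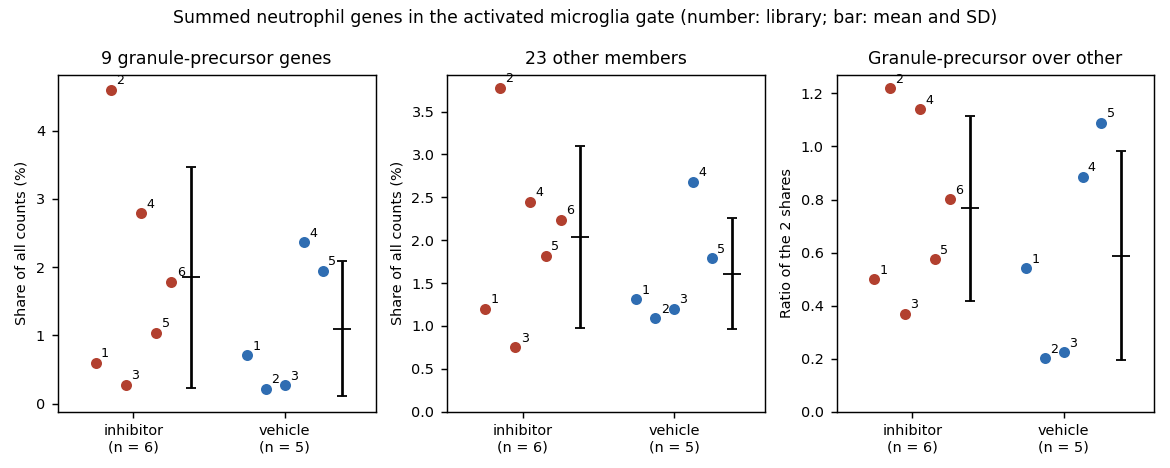
Share of all counts (%) taken by the 9 granule-precursor genes (left) and the 23 other members (middle), and their ratio (right), in each library of the activated microglia gate; points carry the library number and bars give the mean and SD of 6 inhibitor and 5 vehicle libraries. The granule-precursor share runs from 0.220% to 4.60% and the ratio from 0.202 to 1.22, and the 2 groups overlap in all 3 panels.

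Set against Ngp within each library, the members compared differed in how far their ratio spanned. Camp stood at 0.064 to 0.135 counts per count of Ngp over the 11 libraries, a 2.11-fold span, Lcn2 at 0.412 to 0.946 (2.3-fold) and Ltf at 0.198 to 0.536 (2.7-fold). Mmp8 spanned 4.05-fold, Cd177 4.27-fold, Ly6g 4.95-fold and Retnlg 5.63-fold. The spans were 13-fold for Mmp9, 14.9-fold for G0s2 and 19.6-fold for Chil1, whose ratio to Ngp was 0.0479 in inhibitor library 2 and 0.939 in vehicle library 2. Ngp itself spanned 22.5-fold in CPM, so a member with a steady level had to show a wide span of its ratio. G0s2 spanned only 2.11-fold and Chil1 2.37-fold in CPM. These spans describe libraries that share their total count, and no test was made.

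Markers of other cells also varied between these libraries. The 6 NK cell markers (Ncr1, Klrb1c, Gzma, Gzmb, Prf1 and Eomes) summed to 9843, 438, 12491, 2313, 8527 and 293 CPM with inhibitor, against 612, 1578, 2787, 852 and 539 CPM with vehicle. The inhibitor libraries with the highest NK sums, 1, 3 and 5, had the lowest neutrophil shares among the inhibitor libraries, 1.80%, 1.03% and 2.86%. T cell markers summed to 87.9 to 833 CPM with inhibitor and 84.5 to 315 CPM with vehicle, eosinophil markers to 74.8 to 363 CPM with inhibitor and 64.2 to 358 CPM with vehicle, and the 10 proliferation genes to 790 to 1695 CPM with inhibitor and 579 to 895 CPM with vehicle. The mast cell and basophil markers Mcpt8 and Ms4a2 were at 0 in every library of this gate, while Cma1, from the same list of 7, averaged 208 ± 197 CPM with inhibitor and 51.7 ± 38.2 CPM with vehicle. The part of these cells in the levels of the neutrophil genes was not tested.

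**Figure D4:**
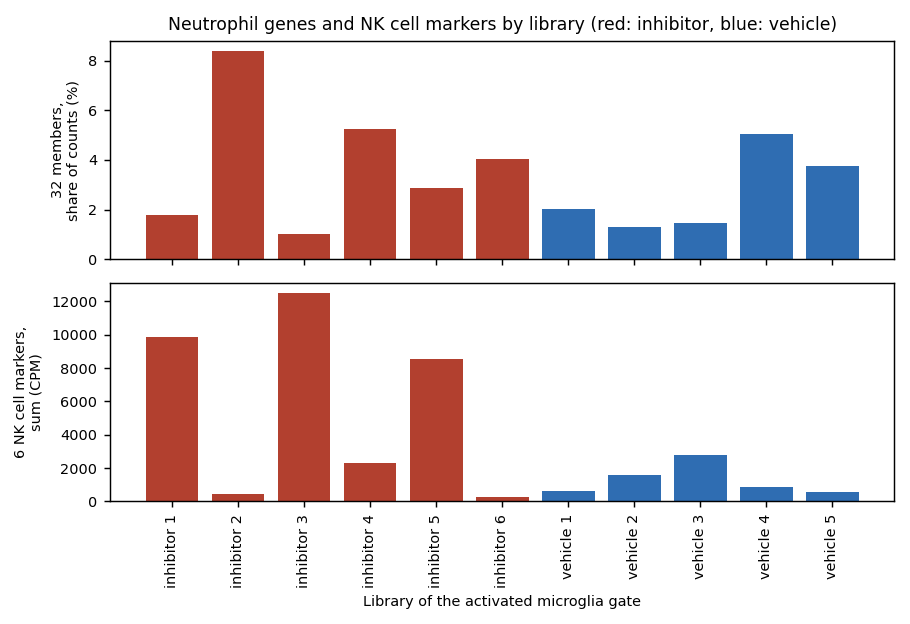
Share of counts of the 32 neutrophil genes (top, %) and summed level of 6 NK cell markers (bottom, CPM) in each library of the activated microglia gate, with inhibitor libraries in red on the left and vehicle libraries in blue on the right. The neutrophil share is highest in inhibitor library 2 at 8.38% and the NK sum in inhibitor library 3 at 12491 CPM.

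With inhibitor, no neutrophil gene changed past the threshold in the activated gate. The question was whether CSF1R inhibition altered the level of these transcripts in each gate, and edgeR's quasi-likelihood test, adjusted by Benjamini-Hochberg over 11675 genes, called 0 of the 31 members tested, beside 0% of all genes called. At an unadjusted p under 0.05 there was 1 member, Ripor2, with a log2 fold change of 0.57 ± 0.24 (SE; edgeR adjusted p = 0.999), beside 3.57% of all genes. DESeq2 called 0 members and 0.128% of all genes. For all 32 members the inhibitor and vehicle libraries overlapped in CPM, as they did for all but 0.617% of genes tested. Ctsg was too low to be tested.

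The estimates were mostly above 0 but not distinguishable from it. The log2 fold change was above 0 in 28 of the 31 members, with a median of 0.50, against 51.1% of all genes and a median of 0.01. Without inhibitor library 2 the median of the members was 0.08. The 5 specific granule genes had estimates of 0.59 to 1.10, with Camp at 1.10 ± 0.92 and Ngp at 0.97 ± 0.86 (SE). Their 95% intervals ran from -0.71 to 2.92 for Camp and from -0.70 to 2.65 for Ngp, both including 0. Ly6g had 0.89 ± 0.55, Retnlg 0.43 ± 0.56, Mmp8 0.50 ± 0.67, Anxa1 0.65 ± 0.56 and Cebpe 0.00 ± 0.89. The azurophil genes had estimates below 0, Mpo -1.60 ± 2.14, Prtn3 -0.36 ± 1.80 and Elane -0.22 ± 2.19. These signs rested on vehicle library 5, without which Mpo was at 5.51, Elane at 5.12 and Prtn3 at 0.81.

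**Figure D5:**
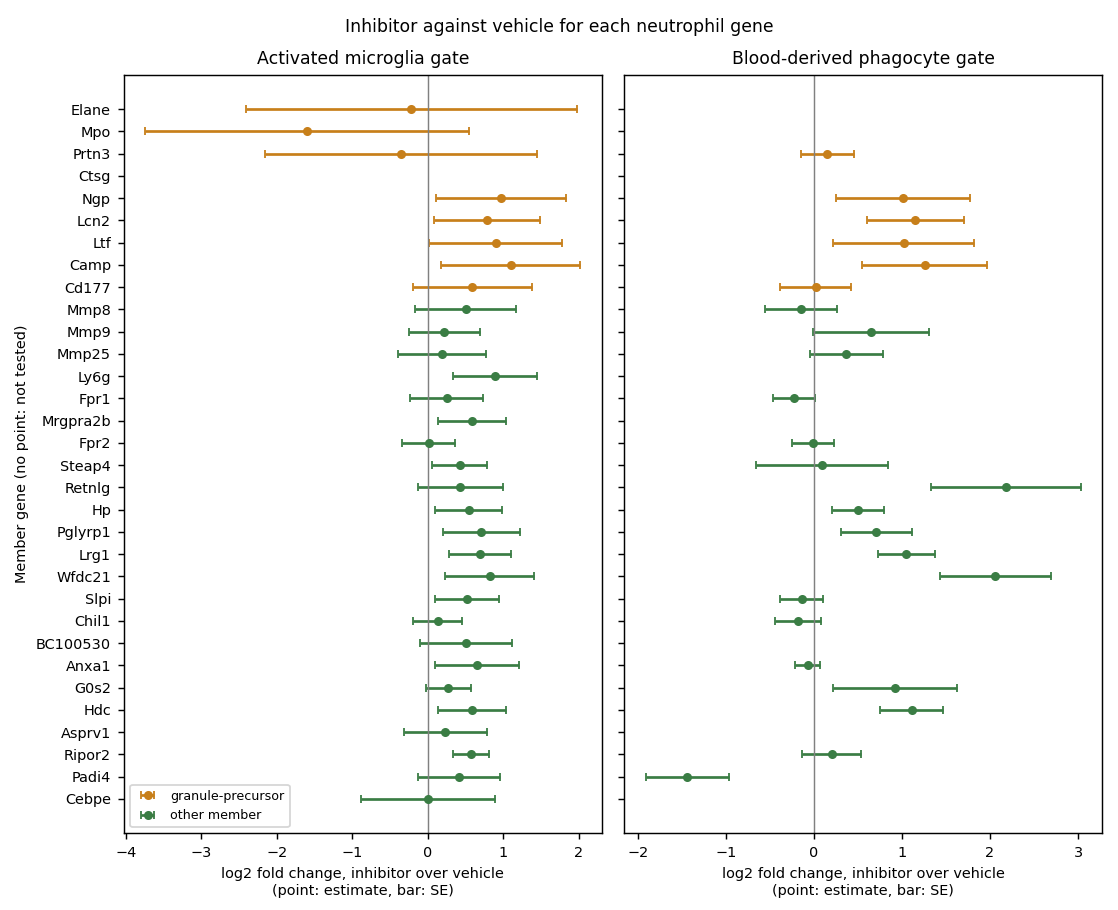
Estimated log2 fold change of inhibitor over vehicle for each neutrophil gene in the activated microglia gate (left, 31 genes) and the blood-derived phagocyte gate (right, 24 genes), with bars for the SE and members without a point not tested. In the activated gate most points lie between 0 and 1.10 with the azurophil genes below 0, and in the blood-derived gate Retnlg and Wfdc21 lie highest and Padi4 lowest.

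In the blood-derived gate no member was called either, with 0 of 24 tested members past the adjusted threshold, beside 0.274% of all genes. At an unadjusted p under 0.05 there were 5 members, beside 14.6% of all genes. Wfdc21 had 3.96, 2.67, 1.34, 0.341, 1.8 and 1.22 CPM with inhibitor, against 0.259, 0.383, 0.889, 0.21 and 0.354 CPM with vehicle, a log2 fold change of 2.06 ± 0.63 (edgeR adjusted p = 0.151). Lrg1 had 18.8, 27.8, 11.7, 9.61, 15.9 and 17.9 CPM with inhibitor, against 5.23, 8.42, 14.4, 5.37 and 5.86 CPM with vehicle, a log2 fold change of 1.05 ± 0.32 (edgeR adjusted p = 0.153). In both genes most inhibitor libraries lay above all vehicle libraries but the groups overlapped. Padi4 had 0.923, 0.607, 1.09, 0.926, 0.582 and 0.355 CPM with inhibitor, against 2.48, 2.3, 2.82, 1.42 and 0.859 CPM with vehicle, a log2 fold change of -1.44 ± 0.47 (edgeR adjusted p = 0.172). Hdc had a log2 fold change of 1.11 ± 0.36 and Retnlg of 2.18 ± 0.85, with edgeR adjusted p of 0.169 and 0.255. DESeq2 called 3 members, Wfdc21 and Lrg1 as higher and Padi4 as lower, beside 2.93% of all genes. All 32 members overlapped between the groups, beside 2.08% of genes that did not. NK cell markers in this gate summed to 30.7 to 140 CPM with inhibitor and 5.05 to 39.1 CPM with vehicle, and their part in these differences was not tested.

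In the resting gate, 0 of 16 tested members were called by edgeR, beside 0% of all genes, and DESeq2 called 0 members, beside 0.0208% of all genes. At an unadjusted p under 0.05 there were 2 members, Hp at -1.44 ± 0.63 and Chil1 at -0.89 ± 0.41 on the log2 scale, beside 5.49% of all genes. Hp averaged 0.75 ± 0.332 CPM with inhibitor and 2.02 ± 1.76 CPM with vehicle, and Chil1 3.86 ± 2.12 CPM with inhibitor and 7.11 ± 2.18 CPM with vehicle, so both differences lay at low levels. All 32 members overlapped, beside 0.589% of genes that did not. A test of the difference between gates in the inhibitor effect called 0 of 31 members, activated minus resting, beside 0% of all genes called, with 3 at an unadjusted p under 0.05, beside 5.88% of all genes. For activated minus blood-derived it called 0 of 31, beside 0% of all genes called, with 1 at an unadjusted p under 0.05, beside 5.43% of all genes. DESeq2 called Mpo in the second of these, beside 0.363% of all genes, where Mpo was at 0 in all 5 blood-derived vehicle libraries, so its fitted fold is not given.

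In inhibitor libraries, which were compared apart from the vehicle libraries, the neutrophil genes were higher in the activated than in the resting gate. EdgeR's test called 28 of the 28 members tested as higher, beside 22.1% of all genes called as higher (33.3% in either direction), and 28 of the 32 members had no overlap, beside 11.4% of genes. Only 16 of the 28 were also high enough to be tested within the resting gate; the others reached the test through their level in the activated gate and had to differ, and earlier results of these libraries were known when they were chosen, so the count is a description. The 4 azurophil genes did not pass the low-count filter of this fit. Mpo, Elane and Prtn3 were called higher with DESeq2, without the filter and with all 33 libraries in 1 fit, which each called 31 members higher, while on log2 FPKM Prtn3 was called and Mpo and Elane were not. Ctsg was not called in any of these. Retnlg averaged 3788 ± 2335 CPM in activated and 0.431 ± 0.358 CPM in resting libraries (SD, n = 6 each), a log2 fold change of 13.50 ± 0.94. Ngp averaged 8733 ± 8336 CPM in activated and 10.2 ± 10.5 CPM in resting libraries, a log2 fold change of 10.19 ± 1.61. BC100530 had no count in 6 resting libraries and was at least 3298-fold higher in the activated gate, against a floor of 3 counts over the group. The smallest differences were those of Mmp25, 4.42 ± 0.48, and Ripor2, 4.73 ± 0.34, whose resting means of 5.28 ± 1.66 and 14.2 ± 5.06 CPM were among the highest of the members there. Over all genes, 2658 were higher and 1349 lower under TMM, 2203 and 1715 under RLE size factors, 2912 and 2738 with DESeq2, and 2916 and 3680 on log2 FPKM. The median log2 fold change of all genes was -0.01 under TMM, -0.20 under RLE and -0.26 with DESeq2, and all 28 members were called higher under each.

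The blood-derived gate held far less of most members than the activated gate in inhibitor libraries. EdgeR's test called 28 of 30 tested members as lower, beside 14% of all genes called as lower (20.2% in either direction), and 28 of 32 had no overlap, beside 7.55% of genes; the activated inhibitor libraries are those of the comparison with the resting gate. Of the 30, 24 were high enough to be tested within the blood-derived gate, and the others, such as Ly6g and BC100530, reached the test through the activated gate; with the members chosen as they were, this count too is a description. Not called were Elane, at -5.38 ± 1.97 (edgeR adjusted p = 0.073), and Prtn3, at -0.44 ± 1.15 (edgeR adjusted p = 0.833). Mpo and Ctsg did not pass the low-count filter, so no azurophil gene was called in this fit. Among the alternatives, only DESeq2 called Mpo (DESeq2 adjusted p = 0.037), and none called Ctsg. Prtn3 averaged 4.17 ± 1.26 CPM in the blood-derived gate, against 4.47 ± 3.99 CPM in the activated gate, and it was detected in all 11 blood-derived libraries. Among the members called, Chil1 fell least, to 260 ± 47.2 CPM in blood-derived libraries, against 794 ± 228 CPM in activated libraries, a log2 fold change of -1.82 ± 0.29. Fpr2 had -2.47 ± 0.35, Fpr1 -3.99 ± 0.54, Anxa1 -4.18 ± 0.53, Hp -4.29 ± 0.45 and Slpi -4.41 ± 0.45. Retnlg had -11.07 ± 1.13, Mmp9 -10.10 ± 0.87 and Ly6g -9.75 ± 0.99, and BC100530, without a count in 6 blood-derived libraries, was at least 3516-fold higher in the activated gate. Over all genes, 723 were higher and 1625 lower under TMM, against 1688 and 1627 on log2 FPKM.

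The levels in vehicle libraries are given without a test. Chil1 averaged 289 ± 148 CPM in vehicle blood-derived libraries, against 776 ± 216 CPM in vehicle activated libraries (SD, n = 5 each). Retnlg averaged 0.451 ± 0.197 CPM in vehicle blood-derived libraries, against 3082 ± 1928 CPM in vehicle activated ones. Ngp averaged 4988 ± 4588 CPM in activated and 18.1 ± 19.8 CPM in resting libraries.

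Proportions among members are given without a test. Per count of Ngp, Ltf averaged 0.447 ± 0.205 in blood-derived and 0.476 ± 0.0614 in activated inhibitor libraries. Camp averaged 0.177 ± 0.132 in blood-derived and 0.108 ± 0.0237 in activated libraries, and Retnlg 0.132 ± 0.193 in blood-derived and 0.628 ± 0.288 in activated libraries. Hp averaged 9.59 ± 6.62 counts per count of Ngp in blood-derived and 0.328 ± 0.183 in activated libraries, and Chil1 25.9 ± 21.5 in blood-derived and 0.18 ± 0.141 in activated libraries. The ratio of granule-precursor to other members averaged 0.104 ± 0.0616 in blood-derived and 0.767 ± 0.349 in activated inhibitor libraries, and 0.792 ± 0.416 in resting ones. The resting ratio is not of the same make-up as the activated one. Lcn2 averaged 18.6 ± 3.88 CPM in resting inhibitor libraries, against 10.2 ± 10.5 CPM for Ngp. In resting inhibitor library 1, Lcn2 stood at 15.1 CPM with Ngp at 0.0482 CPM.

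Related genes outside the 32 were counted in lists that were drawn up by role. Not all are particular to neutrophils. The proliferation genes mark dividing cells of any type. In inhibitor libraries Ctsc and Cebpa were lower in the activated than in the resting gate, at a log2 fold change of -1.51 ± 0.23 and -2.79 ± 0.52 (SE). With inhibitor none of the 10 azurophil and progenitor genes, 12 specific and gelatinase granule genes, 28 mature neutrophil genes and 10 proliferation genes was called in any gate by edgeR. In the activated gate, 2 of 10, 0 of 12, 2 of 28 and 2 of 10 of them had an unadjusted p under 0.05, beside 3.57% of all genes. In the blood-derived gate it was 2 of 7, 6 of 7, 6 of 20 and 2 of 10 tested, beside 14.6% of all genes, and in the resting gate 2 of 7, 2 of 7, 1 of 16 and 6 of 10, beside 5.49% of all genes. Beside 2.93% of all genes, DESeq2 called 5 mature genes as higher in the blood-derived gate, Il1f9, Mxd1, Ifitm1, Ifitm6 and Mcemp1, which are named after their values were seen, and no other gene of these lists in any gate. Of the mature list, 28 of 28 had a log2 fold change above 0 in the activated gate, with a median of 0.46, beside 51.1% of all genes. Their sum was 109502 CPM in inhibitor library 2, against 24008 to 62534 CPM in the other inhibitor libraries and 28815 to 68509 CPM with vehicle. These genes were measured in the same libraries as the members, so their signs are no separate evidence. The values that follow belong to the activated gate unless another is named. Ifitm1 stood at 0.70 ± 0.32, Selplg, the ligand of P-selectin, at 0.47 ± 0.23 and Mrgpra2a at 0.65 ± 0.34. Gfi1, a repressor of the granulocyte lineage, stood at 2.88 ± 1.19, Ctsc, which activates granule serine proteases, at -0.72 ± 0.30, Cebpa at -1.06 ± 0.57 and Serpinb1a, an inhibitor of those proteases, at 0.99 ± 1.11. Of the specific and gelatinase list, Ltb4r1, the leukotriene B4 receptor, stood at 0.71 ± 0.47, Cd63 at -0.62 ± 0.48, Ceacam10 at 0.55 ± 0.54 and Cybb, an NADPH oxidase subunit, at -0.37 ± 0.46. Of the proliferation genes, Birc5 stood at 1.32 ± 0.47, Top2a at 0.95 ± 0.37, Stmn1 at 0.67 ± 0.37 and Cdk1 at 0.97 ± 0.54. In the blood-derived gate they stood at -0.93 ± 0.42, -0.51 ± 0.24, -0.43 ± 0.20 and -0.26 ± 0.23 in the same order. In the resting gate they stood at -0.89 ± 0.39, -0.77 ± 0.40, -0.73 ± 0.31 and -0.77 ± 0.21. With DESeq2, 10 of 10 proliferation genes were above 0 in the activated, 2 of 10 in the blood-derived and 0 of 10 in the resting gate, beside 51.2%, 50.9% and 47.2% of all genes.

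Between gates the same lists were counted in inhibitor libraries. Several genes of the granule and mature lists were too low to be tested within the resting or blood-derived gate. Such genes reached these tests through their level in the activated gate and had to differ. The lists were also chosen with earlier results known, so the counts are a description. In activated against resting libraries, 27 of 28 tested mature genes were higher and 1, Selplg at -0.94 ± 0.20, was lower, beside 22.1% of all genes called as higher. The specific and gelatinase list had 7 higher and 2 lower of 9, the azurophil and progenitor list 4 higher and 3 lower of 8, and the proliferation list 8 higher of 10. In blood-derived against activated libraries, where 14% of all genes were called as lower, 28 of 28 mature genes were lower, 5 of 10 specific and gelatinase genes were lower, 2 of 8 azurophil and progenitor genes were higher and 2 lower, and 10 of 10 proliferation genes were lower. Ctsc and Cebpa were the 2 that were higher, at 1.74 ± 0.24 and 2.47 ± 0.53, and Gfi1 and Serpinb1a the 2 that were lower, at -5.10 ± 1.01 and -6.32 ± 0.85.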

How the data were processed

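RNA from 33 libraries of sorted mouse brain cells was amplified with SMART-Seq v4, with more PCR cycles for the scarcest inputs, and sequenced on a NextSeq500, per the labels' protocols. Bcl2fastq and GRCm38 are named in the submitters' processing notes; how reads were aligned and counted was not given in these sources. The authors deposited expected counts for 21950 genes, of which 16.3% of values were not whole and were rounded for the count tests. Log2 FPKM values, with 1 added before the log, were deposited for 27745 genes. Symbols came from the GENCODE M21 annotation, and promoters from RefSeq. CPM are counts scaled by the library's total.

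Each comparison was fitted on its own libraries in R 4.3.3 with edgeR 4.0.16 (filterByExpr, TMM scaling, robust quasi-likelihood test), and p-values were adjusted over all genes tested, with 0.05 as the threshold. The inhibitor effect between gates was tested as an interaction. Alternatives were DESeq2 1.42.0, RLE size factors, no filter on low counts, all libraries in 1 fit, limma 3.58.1 on the log2 FPKM, the replicate number as a block, the library's sex as a covariate, read from its Y-linked counts since the labels give none, and leaving out each library or the activated libraries with fewer than 11000 detected genes. The code was tested on simulated data. Precision follows from the 11789803 to 22146705 counts per library; a group without a count is given a floor of 3 counts over the group, which covers counting error only. Members and lists were chosen with earlier results of these data known. All 32 members are named, with every library of the activated gate for the 9 granule-precursor genes, Ly6g, Cebpe and the highest member by FPKM of each other role, and up to 4 genes with the smallest p from each related list, except 1 that is not reported here.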

Additional observations from a re-analysis of the deposited data

Results flagged for a closer look

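In 8 of 82 groups of 5 or 6 libraries, 1 library lay far from the others by Dixon's 95% criterion. Its rate of about 1 in 20 by chance holds for independent, normally spread values. These genes vary together and some are mostly at 0, so 8 of 82 cannot be set against that rate. With inhibitor in the activated gate, library 2 stood alone for BC100530 at 279 CPM (next highest 88.6 CPM), for Pglyrp1 at 1619 CPM (next highest 771 CPM) and for Ripor2 at 388 CPM (next highest 303 CPM). Ctsg was at 0.371 CPM in inhibitor library 6 and at 0 in the other 5. With vehicle, library 5 of the activated gate stood alone for Mpo at 139 CPM (next highest 0.703 CPM), Elane at 79.9 CPM (next highest 1.41 CPM) and Ctsg at 5.58 CPM (next highest 0). In the blood-derived gate, the 23 members outside the granule-precursor set took 0.105% of counts in vehicle library 2, next highest 0.0586%.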

How the results depend on the processing

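No member was called for the inhibitor in the activated or resting gate under any alternative run, nor in the blood-derived gate except with DESeq2, which called 2 members higher and 1 lower. DESeq2 also called 1 member lower, Mpo, in the inhibitor effect of the activated minus the blood-derived gate. Leaving out each library in turn gave 0 members called for the inhibitor in each gate and in both interactions, 28 called higher for activated over resting, and 28 to 29 called lower for blood-derived over activated. The gene gained was Elane, without activated inhibitor library 1 or 3, and also with all 33 libraries in 1 fit, while DESeq2 called 30, gaining Elane and Mpo.

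All genes called for the inhibitor were 0 in the activated gate, against 19 with DESeq2 and 322 with all libraries in 1 fit. In the blood-derived gate they were 32, against 343 with DESeq2, 61 with the replicate block, 0 with log2 FPKM or all libraries in 1 fit, and 0 to 181 with a library left out. In the resting gate they were 0, against 3 with DESeq2 and up to 7 with a library left out. For activated against resting they were 4007, against 6121 with all libraries in 1 fit and 6596 on log2 FPKM. For blood-derived against activated they were 2348, against 3969 with all libraries in 1 fit and 3781 without the activated libraries with fewer than 11000 detected genes. Both interactions had 0, against 75 and 59 with DESeq2, 1 and 4 with all libraries in 1 fit, and 1 with the replicate block in the second. Without the activated libraries with fewer than 11000 detected genes the median log2 fold change of the members for the inhibitor was 0.02, against 0.50, with 0 called. Correlations of same-numbered libraries ran from -0.181 to 0.305, so replicate numbers gave no sign of pairing. Y-linked genes passed 10 CPM with inhibitor in libraries 2 and 6 of the activated and blood-derived gates and 1 and 3 of the resting gate. With vehicle they did so in libraries 1 and 4 (activated), 3 and 5 (blood-derived) and 3 and 4 (resting). Whether the same animals gave libraries to several gates cannot be told from this. Apart from the replicate block, the gates were compared as unpaired. The replicate block moved no count of members called (0, 0, 0, 28 and 28), but Mpo and Elane in the activated gate went to 3.72 and 3.28 under it, still not called.

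Leaving out libraries moved the granule-precursor share of the activated gate to 1.3% to 2.17% with inhibitor and 0.787% to 1.32% with vehicle, and the ratio to 0.677 to 0.846 and 0.464 to 0.685. Without the libraries with fewer than 11000 detected genes, a choice made after seeing the data, the share was 1.48% with inhibitor and 1.32% with vehicle. Counting error is largest for the azurophil genes, which had 0 counts in many libraries.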
